A study of Mus musculus with 899 samples.

Results

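The miRNA of the imprinted Dlk1-Dio3 domain were measured in mouse plasma as a set of 49 mature miRNA, of 1915 mature miRNA in the deposited count table. They were chosen by name, as miRNA of the Meg3, Rian and Mirg region of mouse chromosome 12, and come from 39 hairpins. The rule uses no measured value, but earlier results of these data were known when the members were chosen. All 49 names were found in the table. A total of 36 members had enough reads to be tested and 13 did not.

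The plasma came from a study of lung injury after whole-thorax irradiation in 2 inbred mouse strains. C3Hf/Sed/Kam (C3H) and C57Bl/6 mice of both sexes had the thorax exposed to X-rays with the rest of the body shielded, or had a sham procedure, and the same animals were bled repeatedly. There were 899 libraries from 196 mice, of which 64 irradiated and 32 sham mice were C3H (258 and 144 libraries) and 68 irradiated and 32 sham mice were C57Bl/6 (321 and 176 libraries). Blood was drawn before irradiation (PT) in nearly all mice, at day 2 (D2) in one arm or day 5 (D5) in the other, and at month 1 (M1). Part of the mice have no library after month 1. The others were bled each month to month 4 (M4) in C3H and month 6 (M6) in C57Bl/6, for as long as they were followed. The paper reports that many irradiated mice of both strains died of late radiation injury. Late irradiated groups therefore hold only mice that lived to that time. Irradiated libraries went from 28 at month 2 to 17 at month 4 in C3H, and from 36 at month 2 to 8 at month 6 in C57Bl/6. The sham groups held 16 at each of these times. A group, which is a strain, treatment and time point, held 8 to 68 libraries. Males were younger than females at the start, so sex and starting age cannot be told apart. Live mice were bled behind the eye and terminal samples were taken from the heart, and the labels do not say which libraries were terminal, so route and late time points cannot be told apart either.

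Genes of the Dlk1-Dio3 domain are expressed from one parental chromosome: Dlk1, Rtl1 and Dio3, which encode proteins, from the paternal copy, and the long noncoding transcripts Meg3, Rian and Mirg, with the miRNA inside or beside them, from the maternal copy. A miRNA binds messenger RNA mainly through its seed, bases 2 to 8 from the 5′ end, and each hairpin can give a mature miRNA from its 5′ arm (5p) and its 3′ arm (3p). These miRNA are best known from placenta, embryo, brain and muscle, and miR-134 in particular from the dendrites of neurons.

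The 12 members with the highest mean level carry most of the signal and are shown first, with the seed in capitals. Mature sequences are those of RefSeq for GRCm38.p6, which held 46 of the 49 members.
mmu-miR-382-5p: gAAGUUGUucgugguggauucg
mmu-miR-381-3p: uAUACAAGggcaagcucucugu
mmu-miR-434-3p: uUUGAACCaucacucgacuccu
mmu-miR-136-5p: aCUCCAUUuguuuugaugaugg
mmu-miR-134-5p: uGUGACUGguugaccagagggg
mmu-miR-434-5p: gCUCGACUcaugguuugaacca
mmu-miR-409-3p: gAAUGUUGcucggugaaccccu
mmu-miR-300-3p: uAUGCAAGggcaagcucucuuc
mmu-miR-379-5p: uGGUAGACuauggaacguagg
mmu-miR-154-5p: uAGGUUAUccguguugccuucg
mmu-miR-431-5p: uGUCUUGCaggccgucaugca
mmu-miR-411-5p: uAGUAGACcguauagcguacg

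The next set holds members with few reads on which individual results turn, again with the seed in capitals.
mmu-miR-370-3p: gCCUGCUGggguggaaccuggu
mmu-miR-341-3p: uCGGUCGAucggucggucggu
mmu-miR-323-3p: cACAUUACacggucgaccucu
mmu-miR-494-3p: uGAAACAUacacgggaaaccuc
mmu-miR-495-3p: aAACAAACauggugcacuucuu
mmu-miR-543-3p: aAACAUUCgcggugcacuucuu
mmu-miR-376b-3p: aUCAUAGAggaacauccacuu
mmu-miR-376a-3p: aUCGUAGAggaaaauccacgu
mmu-miR-377-3p: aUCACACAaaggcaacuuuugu
mmu-miR-433-3p: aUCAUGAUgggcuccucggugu
mmu-miR-369-3p: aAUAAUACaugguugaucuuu
mmu-miR-410-3p: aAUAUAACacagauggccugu

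No seed was shared by any pair of the 46 sequenced members. Some are close relatives, between which a read with an error can be counted to the wrong one. miR-381-3p and miR-300-3p have the same length and differ by 3 substitutions, A4G, G21U and U22C (positions from the 5′ end, the base of the first-named miRNA first), only the first of which lies in the seed. miR-376b-3p and miR-376a-3p also differ by 3 (A4G, C13A and U20G), and miR-495-3p and miR-543-3p by 4 (A6U, A7U, A9G and U10C). miR-379-5p and miR-411-5p differ at 7 positions, of which G2A is in the seed. Transcripts of the miR-376 group are known for A-to-I editing in the seed, and an edited read can be assigned to a relative. The counts of such pairs are uncertain to that extent.

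The set made up a very small share of the plasma miRNA. Its summed reads, in counts per 1000000 miRNA reads (CPM), were 108 in the lowest library, 896 in the median library, or 0.0896% of the reads, and 5225 in the highest. miR-382-5p had a mean of 373 CPM and ranked 94 among all miRNA of the table. It was followed by miR-381-3p at 210 CPM, miR-434-3p at 154 CPM and miR-136-5p at 81.4 CPM, and these 4 members were counted in all 899 libraries and held 74.1% of the reads of the set. miR-134-5p, miR-434-5p, miR-409-3p, miR-300-3p, miR-379-5p, miR-154-5p, miR-431-5p and miR-411-5p followed, from 44.4 CPM down to 10.1 CPM. Only 13 of the 49 members had a median of 10 or more reads. miR-127-3p had a mean of 0.712 CPM and at least 1 read in 44.8% of the libraries.

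**Figure D1:**
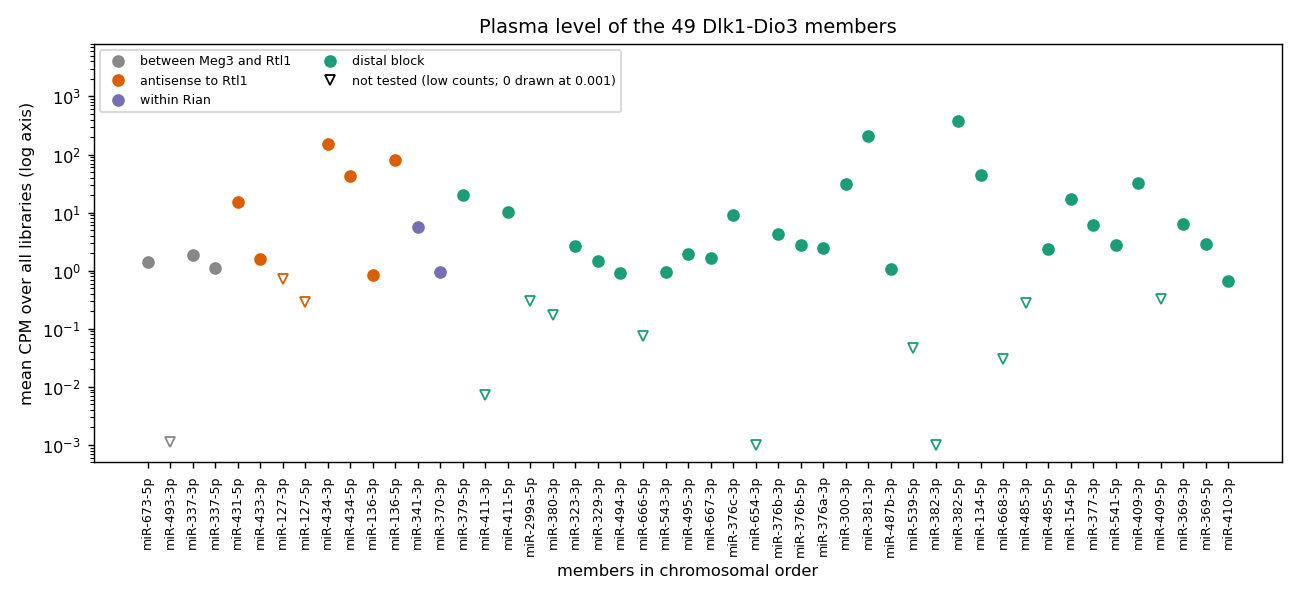
Mean level of each of the 49 members over the 899 libraries, in CPM on a log axis, in the order of their hairpins along chromosome 12, coloured by position in the domain. Open triangles are the 13 members that were not tested, and members at 0 are drawn at 0.001. The level ranged from 373 CPM for miR-382-5p to 0 for miR-382-3p and miR-654-3p.

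The 13 members that were not tested were miR-127-3p, miR-127-5p, miR-299a-5p, miR-380-3p, miR-382-3p, miR-409-5p, miR-411-3p, miR-485-3p, miR-493-3p, miR-539-5p, miR-654-3p, miR-666-5p and miR-668-3p. They had a read in 0% to 44.8% of the libraries, and miR-382-3p and miR-654-3p had none in any. The 36 tested members had a read in at least 25.4% of the libraries, and a member with so few reads could pass the filter through the groups in which it is high, so counts over the 36 are not counts over the set.

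High and low members lay side by side in the domain. In GRCm38 the hairpins lie on the plus strand of chromosome 12 between 109571990 and 109743795, after Meg3 (109541001 to 109571726) and before Dio3 (110279068 to 110281097). The 5 hairpins antisense to an exon of Rtl1, a gene that is read from the minus strand (109589193 to 109600330), gave 8 members and 27.2% of the reads of the set, mostly miR-434-3p and miR-136-5p. The 2 hairpins in introns of Rian, Mir341 (109611500 to 109611595) and Mir370 (109618258 to 109618336), gave 0.596% of the reads. The 3 hairpins between Meg3 and Rtl1 gave 0.427%. The distal block of 29 hairpins that ends in Mirg gave 71.8%. Within that block, Mir382 (109733771 to 109733846, an exon of Mirg) and Mir381 (109726822 to 109726896, outside any annotated gene) held the highest members, beside hairpins with almost no reads.

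Both arms were members for 10 hairpins, and the balance between them ranged widely. Mir382 gave 523055 reads from its 5′ arm and 0 from its 3′ arm, and Mir411 was 99.97% 5′ arm. Mir136 was 98.9% 5′ arm, Mir409 98.8% 3′ arm and Mir485 89.4% 5′ arm. The 3′ arm gave 74.9% of the reads of Mir127, 66.7% of Mir369, 61.4% of Mir337 and 59.6% of Mir376b. Mir434 gave 77.5% from the 3′ arm, and its 5′ arm share of 22.5% had a 95% Wilson interval of 22.3% to 22.6%, which covers counting error only.

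Libraries held 206490 to 11814515 miRNA reads with a median of 1475030, and group medians ran from 855373.5 reads (C57Bl/6 sham mice at day 5) to 2882714 reads (irradiated C3H mice at month 4). A member at 1 CPM was therefore counted with 1 or a few reads. No pair of libraries was identical, and none of the 15975 pairs within a group agreed within sampling noise. Summed reads of muscle, red blood cell, leukocyte, liver and stromal miRNA moved between groups and are given beside the results they move with. Neural miRNA were low, with a median sum of 33.8 CPM, and the defining miR-124-3p had a mean of 0.790 CPM. In plasma, fewer cells of a type that release a miRNA and less release per cell cannot be told apart.

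The first comparison asked how the level of the set moved over time in mice that were never irradiated. In C57Bl/6 sham mice the set was higher at day 2, day 5 and month 1 than before the procedure, was back near its starting level at month 2, and was lower at month 6. The summed reads, given as lowest, median and highest library, were 311, 965 and 2075 CPM before (32 mice), 896, 2145 and 3901 CPM at day 2 (16 mice), 297, 1894 and 5156 CPM at month 1 (32 mice) and 275, 673 and 1073 CPM at month 6 (16 mice). The groups overlapped throughout, although the median at day 2 was above the highest library before. Compared within each mouse, the sum was higher at day 2 in 13 of 16 mice, in 14 of 16 at day 5 and in 25 of 32 at month 1, and it was lower at month 6 in 10 of 16. No test was made of the sums.

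**Figure D2:**
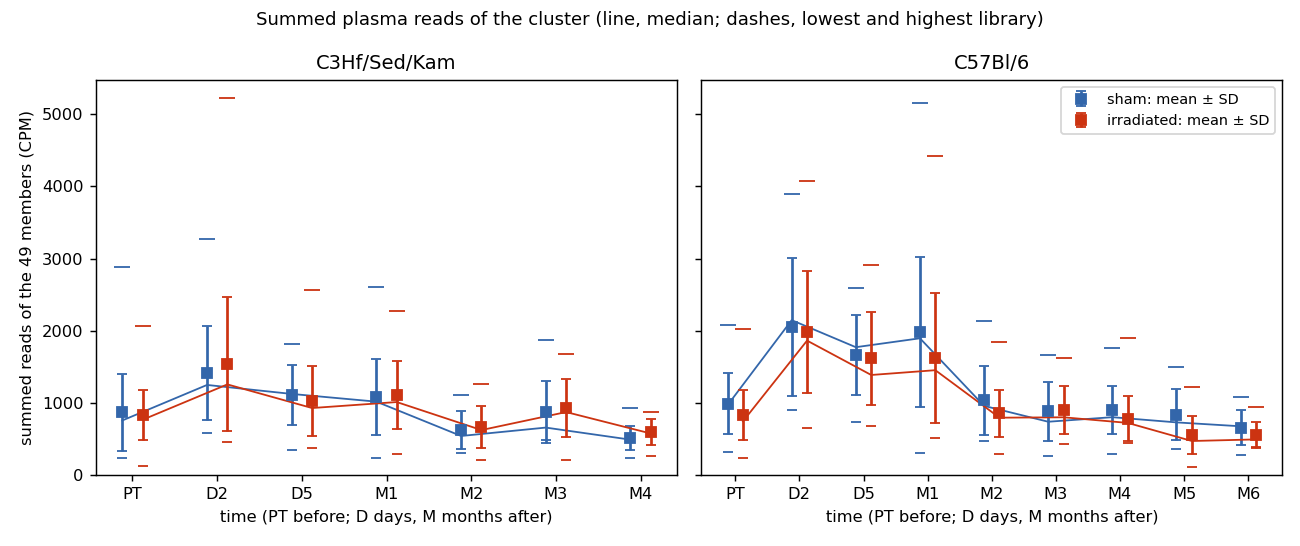
Summed reads of the 49 members in CPM by time point, in C3H (left) and C57Bl/6 (right) mice, sham in blue and irradiated in red. Squares and bars are the mean and SD, the line joins the medians, and dashes are the lowest and highest library. In C57Bl/6 sham mice the median went from 965 CPM before to 2145 CPM at day 2 and 673 CPM at month 6.

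Member by member, 17 of the 36 tested members rose and 0 fell at day 2 in C57Bl/6 sham mice, by edgeR's quasi-likelihood test at an adjusted p of 0.05, where 21.5% of all 483 tested miRNA passed and 13.5% passed as higher. All 36 fold changes were positive and their median was 0.98 on the log2 scale, against 0.01 over all tested miRNA. At day 5, 9 rose and 0 fell (30.4% of all miRNA passed), and at month 1, 16 rose and 0 fell (24.6%). At month 2 no member passed by edgeR (16.1% of all miRNA did), with 3 members and 129 of all 483 miRNA at an unadjusted p under 0.05. There limma-voom with a fixed term for each mouse (the mouse block) called 3 members, each higher (22.8% of all miRNA passed). Then by edgeR 5 fell at month 3 (32.3%), 5 at month 4 (29.6%) and 6 at month 5 with 1 higher (27.7%). At month 6, 11 fell with 0 higher (33.3%, 14.9% as lower). With the mouse block, 3 were higher and 4 lower at month 3, where 195 of 483 miRNA passed. It called 2 higher and 3 lower at month 4 (150 of 483) and 2 higher and 4 lower at month 5 (175 of 483). At month 6 it called 0 higher and 16 lower (198 of 483). The median edgeR log2 fold change of the members at month 6 was -0.87, against 0.02 over all tested miRNA.

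miR-382-5p, the most abundant member, had the smallest adjusted p of the early rise in C57Bl/6. On the log2 CPM scale its lowest, median and highest sham libraries were 6.48, 7.95 and 8.93 before, 8.13, 9.69 and 10.61 at day 2 and 8.36, 9.64 and 10.54 at day 5. The groups overlapped, but both later medians lay above the highest library before the procedure. The log2 fold change was 1.76 (SE 0.21, edgeR adjusted p = 2.02e-14) at day 2, 1.67 (SE 0.21, edgeR adjusted p = 1.04e-13) at day 5 and 1.22 (SE 0.18, edgeR adjusted p = 6.32e-10) at month 1. From month 2 on no difference from the start passed the test, and the value at month 6 was -0.48 (SE 0.22, edgeR adjusted p = 0.0774).

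miR-381-3p rose at day 2 and was lower than at the start from month 3 on. Its C57Bl/6 sham libraries were 6.73, 7.76 and 8.48 before, 7.88, 8.81 and 9.21 at day 2, then 5.28, 6.18 and 7.64 at month 6. Its last median was below the lowest library before. The log2 fold change was 0.90 (SE 0.21, edgeR adjusted p = 0.000323) at day 2 and -1.38 (SE 0.23, edgeR adjusted p = 6.16e-08) at month 6, and miR-381-3p passed as lower at every month from month 3.

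miR-434-3p rose by 1.06 and miR-136-5p by 1.29 on the log2 scale at day 2, both of them from the block antisense to Rtl1. miR-434-3p was lower at month 6 by -0.90, while miR-136-5p at -0.26 did not pass. Of the distal block, miR-379-5p (1.49), miR-134-5p (0.99), miR-409-3p (0.97) and miR-154-5p (0.93) rose at day 2. miR-134-5p, miR-409-3p, miR-300-3p and miR-154-5p fell at month 6, by -0.96, -0.94, -1.05 and -0.84. The call of miR-154-5p at month 6 was lost in 9 of 13 alternative analyses.

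Members with few reads had the largest falls in C57Bl/6. miR-410-3p fell by -2.20 at month 6, a value that rests on 11 of 32 libraries with a read before and 2 of 16 after. miR-341-3p had lowest, median and highest libraries of 0.23, 2.72 and 4.90 before and 0.23, 1.72 and 3.06 at month 6, where 0.23 is the value of a library without a read, and its log2 fold change was -1.87 (SE 0.46, edgeR adjusted p = 0.000507). miR-369-3p (-1.43) and miR-376c-3p (-1.39) fell as well.

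In C3H sham mice members also rose early and fell late, but miR-382-5p was not among the early calls. The summed reads were 238, 754 and 2878 CPM before, 574, 1246 and 3268 CPM at day 2 and 227, 487 and 922 CPM at month 4. They were higher at day 2 in 12 of 16 mice and lower at month 4 in 10 of 16. At day 2, 9 of the 36 tested members rose and 0 fell (25.7% of all miRNA passed), and with the mouse block 18 rose and 0 fell (30.6% of all miRNA passed). At day 5, 6 rose and 1 fell (17.4%). At month 1, 6 rose and 1 fell (32.1%), or 12 and 1 with the block (35.6%). Every edgeR call from month 2 was a fall, with 4 at month 2 (19.5%), 2 at month 3 (24.4%; 4 lower and 3 higher with the block, where 36.4% passed) and 11 at month 4 (38.5%, 19.9% as lower). The members' median log2 fold change was 0.83 at day 2 and -0.59 at month 4.

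The C3H sham libraries of miR-382-5p were 6.88, 8.23 and 10.01 before, 7.06, 8.19 and 9.41 at day 2, then 6.23, 7.34 and 8.28 at month 4, and the 3 groups overlapped. The log2 fold change at day 2 was -0.17 (SE 0.21, edgeR adjusted p = 0.6), and at month 4 the level was 0.499-fold that at the start (log2 SE 0.22, edgeR adjusted p = 5.92e-05). The 9 members that rose at day 2 were miR-377-3p (1.69), miR-369-5p (1.49), miR-376c-3p (1.45), miR-154-5p (1.28), miR-369-3p (1.09), both arms of Mir434, miR-300-3p and miR-136-5p. For miR-376c-3p, 10 of 32 libraries before the procedure had no read, and at day 2 none of 16 did.

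At month 4 the C3H falls included miR-381-3p and miR-136-5p, both by -1.25, and miR-434-3p by -0.79. The miR-381-3p libraries went from 5.94, 7.26 and 9.24 before to 4.98, 6.32 and 7.51. miR-495-3p passed as lower at every time from day 5, with log2 fold changes between -2.29 and -4.15, but 13 of 32 libraries had no read even before and 14 of 16 had none at month 3. miR-433-3p (-1.93) and miR-410-3p fell at month 4, the latter with a read in 6 of 32 libraries before and 1 of 16 after.

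Whether this course differed between the strains was asked with an F test over the 6 later time points they share. It called 9 of the 36 members, where 43.5% of all tested miRNA passed, so the count is no result particular to the set. miR-382-5p had the smallest edgeR adjusted p, 1.41e-13, followed by miR-136-5p, miR-434-3p, miR-495-3p, miR-134-5p, miR-381-3p, miR-409-3p, miR-410-3p and miR-300-3p.

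**Figure D3:**
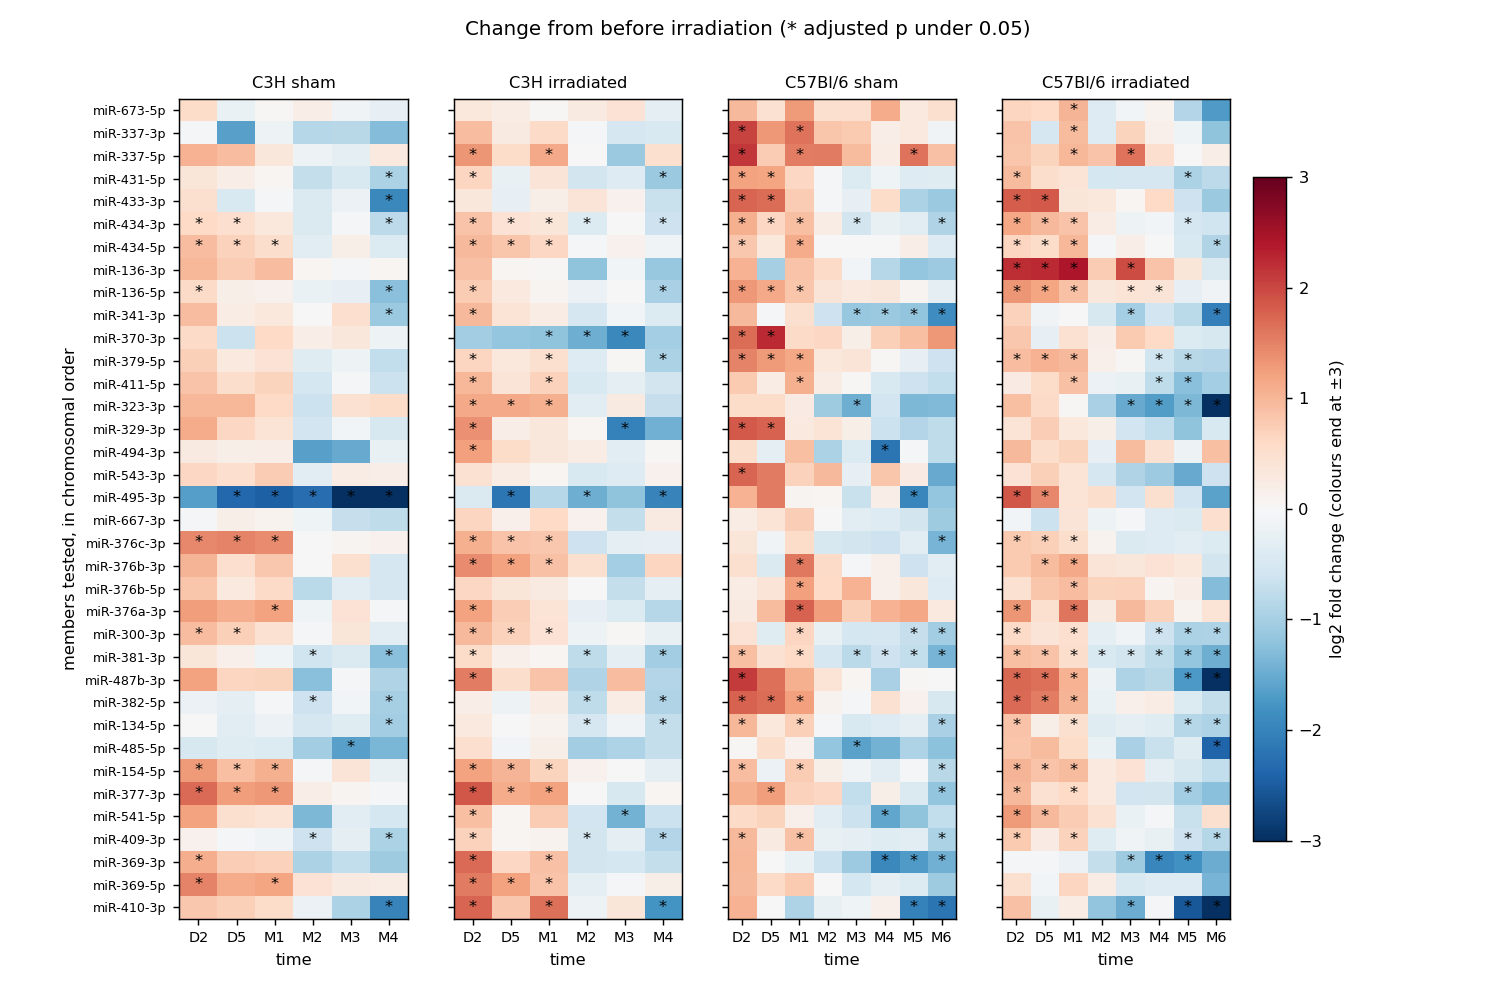
Log2 fold change of the 36 tested members from before irradiation to each later time point, in chromosomal order, for sham and irradiated mice of both strains. Red is higher, blue is lower, colours end at a change of 3 in either direction, and stars mark an edgeR adjusted p under 0.05. Day 2 columns are mostly red and the last month of each strain is mostly blue, as in C57Bl/6 sham mice with 17 higher members at day 2 and 11 lower at month 6.

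Each sex and each code in the sample titles was also fitted alone, a choice made after seeing the data. The title codes are G1 and G3 in C57Bl/6 and G2 and G4 in C3H, and only G1 and G2 have libraries after month 1. Not all irradiated mice of G1 or G2 were followed to the last month. In G1 they had 20 female and 16 male libraries at month 1, and 4 of each sex at month 6. In C57Bl/6 sham mice at day 2, 9 members rose in females (12.2% of all miRNA passed) and 5 in males (7.99%). In G1, 8 of 33 tested members rose (22%) and in G3, 9 of 25 (16.1%), and none fell in any of these fits. At month 6, 7 fell in females (23.2%) and 6 in males (22.5%). In C3H sham mice at day 2, 10 rose in females (10.8%) and 1 in males (20.3%). At month 4, 2 fell in C3H females (24.8%) and 11 in males (23.8%), and miR-382-5p changed by -0.33 in females and -1.48 in males on the log2 scale. The differences between the sexes in these changes were not tested.

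Sums of marker miRNA also moved over time. In C57Bl/6 the median sum of the 7 muscle miRNA was 5701 CPM before the procedure in sham mice, 18156 CPM at day 2, 25340 CPM at day 5, 15069 CPM at month 1 and 3861 CPM at month 6. In C3H sham mice its median was 6982 CPM before and 7907 CPM at day 2, and its mean 8915 and 16264 CPM. Red blood cell miRNA in C57Bl/6 sham mice had a median sum of 67768 CPM before, 59110 CPM at day 2 and 40881 CPM at month 6. The median sum of stromal miRNA at these times was 23200, 11552 and 12830 CPM, and that of neural miRNA 31.1, 14.6 and 41.5 CPM. In C3H sham mice before, at day 2 and at month 4, the stromal median was 14466, 16564 and 8731 CPM. The neural median was 28.2, 38.5 and 47.2 CPM, so at day 2 both sums moved the other way than in C57Bl/6. In the red blood cell sum, miR-486a-5p and miR-486b-5p had nearly equal means over all libraries, 27806 and 27798 CPM. Whether the same reads were counted under both names was not tested. The part of the shifts in these marker sums in the change of the members was not tested either.

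In irradiated mice, which share no library with the sham mice, members also rose early and fell late. These contrasts were added after seeing the data. In C57Bl/6, 19 members rose at day 2 (35.8% of all miRNA passed), 14 at day 5 (32.7%) and 21 at month 1 (35.8%), with 0 lower. At month 2, 1 fell (26.7%), while the mouse block called 7 higher and 1 lower, where 42.4% passed. At month 3, 3 rose and 5 fell (39.3%), but with the block 8 were higher and 4 lower, where 242 of 483 passed. The summed reads of the set were higher at month 3 than at the start in 22 of 27 irradiated C57Bl/6 mice. By edgeR, 1 rose and 6 fell at month 4 (36.9%), 13 fell at month 5 (30.4%) and 10 fell at month 6 (18%). In C3H, 24 members rose at day 2 (38.1%), 9 rose and 1 fell at day 5 (34.8%) and 14 rose and 1 fell at month 1 (37.7%). Every later edgeR call was a fall, with 7 at month 2 (26.1%), 3 at month 3 (26.7%; 6 lower and 1 higher with the block, where 38.7% passed) and 10 at month 4 (31.1%). With the mouse block, month 4 had 17 lower and 1 higher, where 50.9% of all miRNA passed.

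The irradiated C57Bl/6 libraries of miR-382-5p were 6.77, 7.81 and 9.27 before and 8.37, 9.52 and 10.69 at day 2, a log2 fold change of 1.70. In irradiated C3H mice it passed as lower at months 2 and 4, by -0.76 and -0.91, and did not pass at day 2. miR-136-3p, the minor arm of Mir136, rose by 2.22 at day 2 and 2.42 at month 1 in irradiated C57Bl/6 mice. Both values come from a member with few reads, with a median of 0 reads and a read in 33.4% of all libraries. The median sum of muscle miRNA in irradiated mice was 6548 CPM before and 12631 CPM at day 2 in C3H, and 5017 and 12542 CPM in C57Bl/6, and its part was not tested.

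Irradiated and sham mice were then compared at the same time, which asks whether the set in plasma responds to thoracic irradiation. Over the 14 comparisons after irradiation, 1 member passed in 1 of them. At PT none passed by edgeR in either strain, where 0% of all miRNA passed. Unadjusted, 2 members in C3H and 3 in C57Bl/6 had p under 0.05 at PT, against 32 and 25 of all 483 miRNA. Other analyses of the 14 comparisons called 0 to 10, with 4 by DESeq2 and 2 by limma-voom. In C3H no member passed, and 4.97% of all miRNA did at day 2, 3.11% at day 5, 3.31% at month 1, 0.621% at month 2, 2.07% at month 3 and 0.414% at month 4. In C57Bl/6, 1 of 36 members (2.78%) passed at day 5, where 14.1% of all miRNA did. None passed at the other times, where the share of all miRNA was 6.63% at day 2, 3.73% at month 1, 3.31% at month 2, 1.66% at month 3, 4.76% at month 4, 3.52% at month 5 and 0.414% at month 6. Unadjusted, 0 to 3 of the 36 members had p under 0.05 at each time in C3H and 1 to 9 in C57Bl/6. Over all 483 miRNA these counts were 41 to 77 in C3H and 44 to 135 in C57Bl/6. The 9 members were at month 5, where 74 of the 483 miRNA had such a p.

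**Figure D4:**
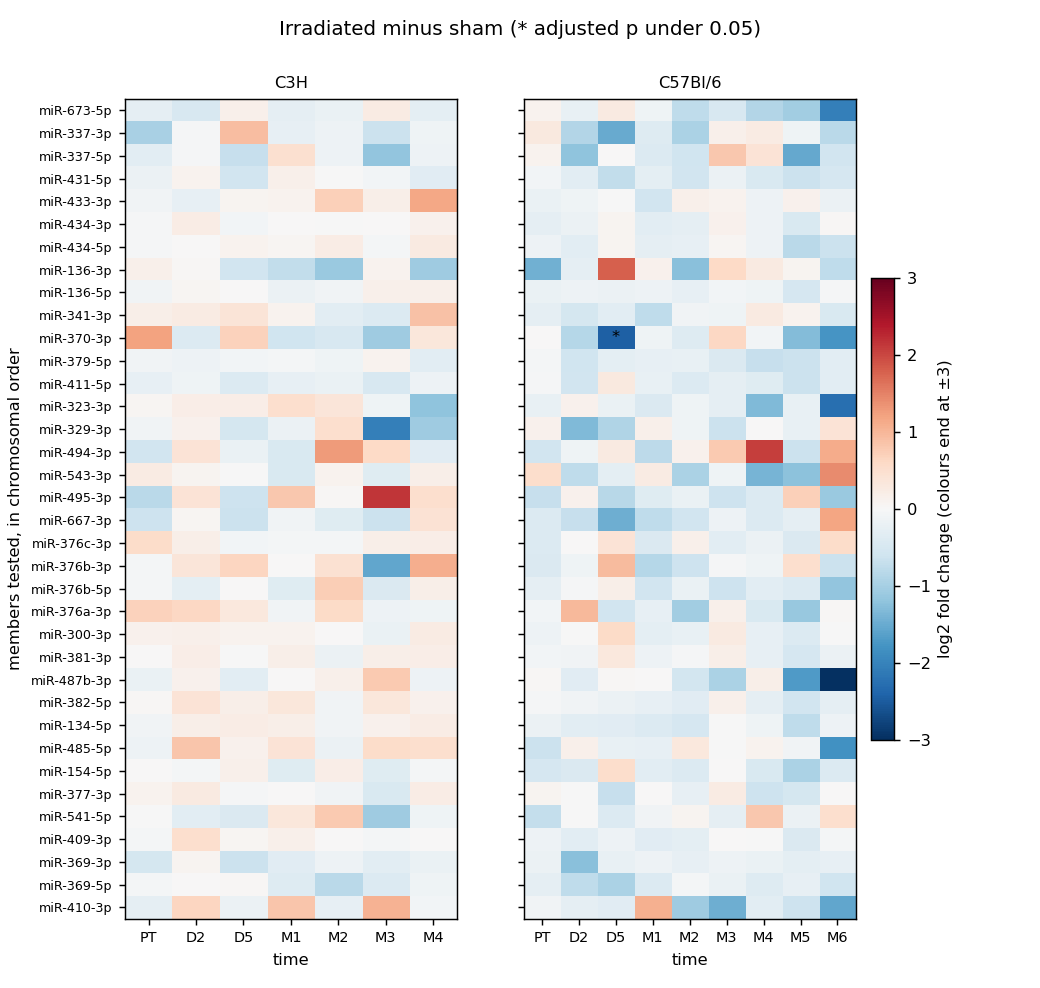
Log2 fold change of irradiated minus sham mice for the 36 tested members at each time point, before irradiation (PT) included, in C3H (left) and C57Bl/6 (right). Red is higher after irradiation, colours end at a change of 3 in either direction, and the star marks the edgeR adjusted p under 0.05. The only star after irradiation is miR-370-3p at day 5 in C57Bl/6, at -2.45.

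The member that passed was miR-370-3p, from an intron of Rian, in C57Bl/6 at day 5. It had 49 reads in the 16 sham libraries and 15 in the 32 irradiated libraries. A read was seen in 9 of 16 sham and 6 of 32 irradiated libraries, with highest counts of 16 and 6. On the log2 CPM scale the lowest, median and highest libraries were 0.23, 1.06 and 3.99 in sham and 0.23, 0.23 and 3.92 in irradiated mice, so the groups overlapped over nearly their whole range. The log2 fold change was -2.45 (SE 0.68, edgeR adjusted p = 0.00431). The difference came with a higher level in the sham group. Its 16 libraries at day 5 were 2.23 on the log2 scale above the 32 sham libraries before the procedure, not paired by mouse. Among the G1 mice a read was seen in 4 of 8 sham and 2 of 16 irradiated libraries, and among the G3 mice in 5 of 8 and 4 of 16. In the fit of females alone the value was -2.70 (edgeR adjusted p = 0.0394) and in males -1.97 (edgeR adjusted p = 0.327), where 13.6% and 3.48% of all miRNA passed. As a change from each mouse's own start, with the mouse as a fixed replicate block, it was -1.57 and missed the threshold (limma-voom adjusted p = 0.0656), and no member passed in that comparison at any time.

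Other times gave a few calls when 1 sex or title code was fitted alone. In C57Bl/6 females these were miR-370-3p at month 2 (-2.99, 3.21% of all miRNA passed) and miR-337-5p at month 5 (-4.41, 5.21%), both lower in irradiated mice. In C57Bl/6 males miR-134-5p (-0.81) and miR-341-3p (-1.32) were lower at month 1 (1.84%), miR-494-3p was higher at month 4 (4.16, 1.64%) and miR-134-5p was lower at month 5 (-1.12, 2.05%). In C3H, miR-329-3p was lower at month 3 in the fit of the G2 mice (-2.15, 2.51%). The largest of these values rest on few reads. miR-370-3p, miR-337-5p and miR-494-3p had a median of 0 reads and a read in 41.5%, 42.3% and 36.2% of all libraries. Their comparisons set 8 sham libraries against 20, 9 and 15 irradiated libraries.

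Among the 12 most abundant members, no difference between irradiated and sham mice passed in the main edgeR fit, and other analyses called a few. miR-431-5p at day 5 in C57Bl/6 was lower in limma-voom (-1.18, adjusted p = 0.0130), in limma on quantile-normalised values (-1.09, adjusted p = 0.00918) and in DESeq2 (-0.80, adjusted p = 0.0444). miR-300-3p at day 5 was higher in limma on quantile-normalised values (1.07, adjusted p = 0.00281). miR-134-5p (adjusted p = 0.0411) and miR-434-5p (adjusted p = 0.0396) at month 5 in C57Bl/6 were lower in DESeq2. Alternative edgeR fits also called miR-134-5p lower at month 5. These were the fit with no filter on low counts (-0.80, adjusted p = 0.0434) and that of libraries of at least 1000000 reads (-0.86, adjusted p = 0.0332). With sex and title code as covariates, edgeR called miR-134-5p (-0.75, adjusted p = 0.0434) and miR-434-5p (-0.83, adjusted p = 0.0259) lower. At day 5 in C57Bl/6, miR-382-5p libraries were 8.36, 9.64 and 10.54 in sham and 7.62, 9.29 and 10.78 in irradiated mice. Over the 14 comparisons its log2 fold changes lay between -0.57 and 0.41, and its smallest edgeR adjusted p was 0.155. miR-381-3p lay between -0.51 and 0.31. In the main fit the next closest to the threshold were miR-434-5p (-0.81, SE 0.26, edgeR adjusted p = 0.0506) and miR-134-5p (-0.77, SE 0.25, edgeR adjusted p = 0.0517), both at month 5 in C57Bl/6. At that time the liver miRNA had a median sum of 25678 CPM in irradiated and 7750 CPM in sham mice. Their part was not tested.

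Each title code of C57Bl/6 mice was also fitted alone at day 5. Among the G3 mice, miR-382-5p was lower in irradiated than in sham mice by -1.16 (SE 0.28, edgeR adjusted p = 0.000567). So were miR-431-5p (-1.09) and miR-337-3p (-1.94), which makes 3 of 25 tested members where 28.3% of all miRNA passed. Among the G1 mice, miR-382-5p was at 0.42 (edgeR adjusted p = 0.442), and 5.44% of all miRNA passed. The difference between the 2 codes was not tested, and the pooled fit gave no call for miR-382-5p.

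The fold changes in C57Bl/6 leaned to the lower side at every time, including the samples before irradiation. The members' median was -0.17 at PT with 28 of 36 negative, -0.26 at day 2 with 31 negative, and -0.49 at month 5 with 31 negative. Before irradiation the median summed reads were 741 CPM in the mice to be irradiated and 965 CPM in the sham mice. As changes from each mouse's own start, the medians were between -0.25 and 0.22. In C3H the medians lay between -0.11 and 0.11. The test of whether the irradiation effect differed between strains called 0 of 36 members by edgeR, with 4 at an unadjusted p under 0.05 and a smallest adjusted p of 0.335 (4.35% of all miRNA passed), and DESeq2 and limma-voom also called 0. The leukocyte miRNA had a median sum of 6403 CPM in irradiated and 10314 CPM in sham C57Bl/6 mice at day 2, and their part was not tested.

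Before irradiation the strains differed in some members. Of the 36 members 12 passed (33.3%), 9 higher and 3 lower in C57Bl/6, where 50.7% of all tested miRNA passed. miR-376c-3p libraries were 0.23, 2.23 and 4.71 in 96 C3H mice and 0.23, 3.23 and 4.88 in 96 C57Bl/6 mice, a log2 fold change of 1.23 (SE 0.20, edgeR adjusted p = 5.6e-09). The groups overlapped, and 22 C3H and 8 C57Bl/6 libraries had no read. miR-410-3p (2.82-fold), miR-323-3p (log2 fold change 1.48), miR-369-3p (0.93), miR-341-3p (0.93), miR-377-3p (0.78), miR-300-3p (0.42), miR-431-5p (0.42) and miR-434-3p (0.20) were also higher in C57Bl/6. No read of miR-410-3p was seen in 82 of 96 C3H and 71 of 96 C57Bl/6 libraries, and none of miR-323-3p in 56 and 27. Of the 3 lower members, 2 were abundant, miR-382-5p at -0.44 (SE 0.11) and miR-136-5p at -0.43 (SE 0.11). The third was miR-495-3p at -1.35, with no read in 41 C3H and 58 C57Bl/6 libraries.

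Before irradiation the median sum of the set was higher in males than in females of both strains. The median sum in C3H was 899 CPM in 16 males and 556 CPM in 16 females of the sham group and 842 and 665 CPM in the 32 males and 32 females to be irradiated. In C57Bl/6 these were 1156 and 787 CPM, and 784 and 701 CPM. In C3H, 11 of the 36 tested members were higher in males and 1 lower (14.5% of all miRNA passed, 7.66% as higher). In C57Bl/6, 7 were higher and 0 lower (14.7%, 9.94% as higher), and with only libraries of at least 1000000 reads edgeR called 0. Because the males were younger, these are differences between sexes and ages together.

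miR-382-5p libraries before irradiation were 7.62, 8.82 and 10.01 in 48 C3H males and 6.29, 7.88 and 8.74 in 48 C3H females. The male median was above the highest female library. The log2 fold change was 0.91 (SE 0.15, edgeR adjusted p = 1.6e-07) in C3H, and in C57Bl/6 it was 0.39 and missed the threshold (edgeR adjusted p = 0.0513). miR-134-5p was higher in males of both strains, by 0.93 in C3H and 0.76 in C57Bl/6. So were miR-409-3p (0.80 and 0.43), miR-434-3p (0.57 and 0.42) and miR-434-5p (0.63 and 0.48). In C57Bl/6 the call was lost in 6 of 9 alternative analyses for miR-409-3p, 5 of 9 for miR-434-5p, 3 of 9 for miR-434-3p and 1 of 9 for miR-134-5p.

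The other sex calls passed in one strain and missed the threshold in the other. In C3H these were miR-541-5p (1.32), miR-485-5p (1.19), miR-376b-3p (1.08), miR-369-3p (2.00-fold), miR-411-5p (0.77) and miR-381-3p (0.71) as higher in males, and miR-494-3p as lower (-1.77), with a read in 6 of 48 male and 17 of 48 female libraries. In C57Bl/6 they were miR-410-3p (1.47), miR-323-3p (1.13) and miR-341-3p (1.06). miR-410-3p had no read in 32 of 48 male and 39 of 48 female libraries. Its call was lost in 3 of 7 alternative analyses, that of miR-323-3p in 2 of 8 and that of miR-341-3p in 1 of 8. The difference between the strains passed the test for miR-494-3p (edgeR adjusted p = 0.00433), miR-381-3p (edgeR adjusted p = 0.0164) and miR-673-5p (edgeR adjusted p = 0.0499), 3 of 36, where 15.1% of all miRNA passed.

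**Figure D5:**
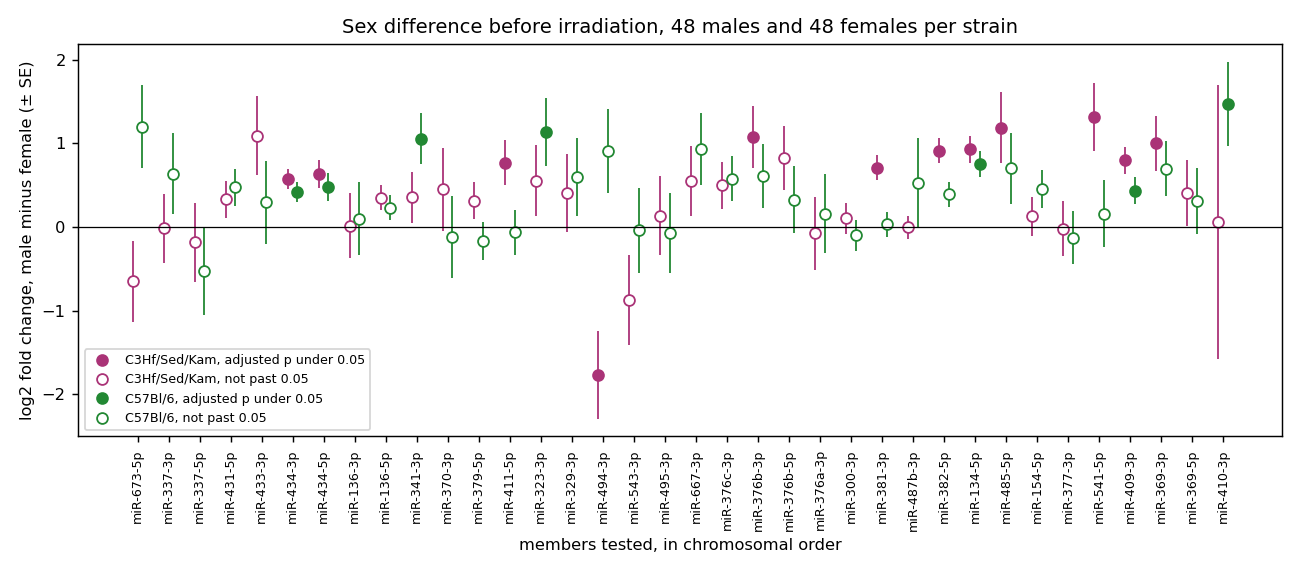
Log2 fold change of males minus females before irradiation for the 36 tested members, in chromosomal order, in C3H (purple) and C57Bl/6 (green), 48 males and 48 females in each strain. Bars are SE, and filled points have an edgeR adjusted p under 0.05. Filled points lie above 0, 11 in C3H and 7 in C57Bl/6, except miR-494-3p in C3H at -1.77.

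Sex was also compared at later times, a choice made after seeing the data. In C3H, edgeR called 0 members at day 2 (4.14% of all miRNA passed), 0 at day 5 (1.45%) and 0 at month 1 (4.55%). At an unadjusted p under 0.05 there were 4, 1 and 3 members, against 72, 36 and 79 of all 483 miRNA. By edgeR 4 members were lower in males at month 2 (18.2%), 1 at month 3 (13.9%) and 4 at month 4 (5.59%). In C57Bl/6, 1 member passed at day 2 (11% of all miRNA passed), 3 at day 5 (17.4%), 2 at month 1 (14.9%), 1 at month 2 (16.8%), 3 at month 3 (14.9%), 1 at month 4 (2.28%) and 2 at month 6 (9.73%). At month 5 edgeR called 0 (0.828% of all miRNA passed), with 5 of 36 members and 65 of 483 miRNA at an unadjusted p under 0.05.

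Members were also compared with each other across mice before irradiation. Over 192 mice, after the mean of each strain and sex was removed, the 66 pairs among the 12 most abundant members had Spearman's rho between 0.0278 and 0.618 with a median of 0.322, and the highest was that of miR-381-3p and miR-300-3p, which are also close in sequence. miR-127-3p, the member chosen to be compared with all others, had too few reads for this. No miRNA passed with it by rank (0% of 483; 3 passed by Pearson's r). The 5 closest outside the set were miR-204-5p, miR-196a-5p, miR-211-5p, miR-199b-5p and miR-30b-5p, with rho between 0.21 and 0.23 and a permutation p adjusted to 0.116 each.

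miR-382-5p served in its place, a choice made after the counts were seen. It was tested against 482 miRNA, of which 160 passed by rank and 72, or 14.9%, passed with a positive rho, among them 14 of the 35 other tested members. The closest was miR-434-3p, with rho 0.60 and r 0.62 (0.62 without the 2 most extreme mice, permutation p adjusted to 8.46e-05, the smallest this number of resamples can give). After it came miR-503-3p (rho 0.59), which is not a member, miR-134-5p (0.53), miR-379-5p (0.53), miR-27b-3p (0.50), miR-381-3p (0.49), the muscle miRNA miR-206-3p (0.48) and miR-136-5p (0.46). All of these share the library and its normalisation.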

How the data were processed

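Plasma small RNA was made into QIAseq miRNA libraries and sequenced on a NextSeq instrument. Per the methods, the authors trimmed and aligned reads in the BaseSpace Small RNA application to mm10 and dropped runs with few miRNA reads; whether molecular identifiers were collapsed is not given in the sources used here. The deposited values are raw counts of reads per mature miRNA. Every column was matched to a sample, and 0 columns were in no sample.

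Groups came from the labels. Counts were fitted in edgeR 4.0.16 (R 4.3.3; quasi-likelihood test, robust, TMM factors 0.372 to 1.59) with 32 group means over 899 libraries and 867 residual degrees of freedom, after a filter on low counts that left 483 miRNA with 99.99% of the reads. p-values were adjusted by Benjamini-Hochberg over all 483 within each comparison, with a threshold of 0.05. The SE is the log2 fold change over the root of F, and is imprecise near 0. Levels are log2 CPM with a prior count of 2. Alternatives used limma 3.58.1 and DESeq2 1.42.0. The edgeR test and the correlations were tested on simulated data. Depth was 206490 to 11814515 reads, and intervals cover counting error only.

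The same mouse number marks the same animal, so numbers pair samples: over 132 miRNA, 1962 pairs of libraries of one mouse had a mean correlation of deviations of 0.0844, against -0.000622 for other pairs. The edgeR fit has no such block, and p-values without it treat repeated libraries as separate. Correlations used 100000 permutations, two-sided. Named members were the 12 most abundant, every call of irradiated against sham mice, the 5 largest rises and falls of the other comparisons and the 5 miRNA most like miR-127-3p; other named members were picked once values were known. The members and lists were chosen with earlier results of these data known.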

Additional observations from a re-analysis of the deposited data

Results flagged for a closer look

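In the 8 irradiated C57Bl/6 mice at month 6, 1 library stood far above the others for miR-136-5p, at 6.97 log2 CPM, and 1 for miR-495-3p, at 1.82 log2 CPM, where the other 7 libraries had no read. This was the only group with 4 to 10 libraries, the sizes examined, with 24 members and the summed reads as 25 sets of values, and chance marks about 1 in 20.

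The change over time in sham mice differed between strains by an edgeR F test for miR-382-5p (adjusted p = 1.41e-13), miR-136-5p (adjusted p = 0.000303), miR-434-3p (adjusted p = 0.000528), miR-495-3p (adjusted p = 0.00132), miR-134-5p (adjusted p = 0.00714), miR-381-3p (adjusted p = 0.0102), miR-409-3p and miR-410-3p (adjusted p = 0.0119 each) and miR-300-3p (adjusted p = 0.0145). The sex difference before irradiation differed between strains by edgeR for miR-494-3p (adjusted p = 0.00433), miR-381-3p (adjusted p = 0.0164) and miR-673-5p (adjusted p = 0.0499).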

How the results depend on the processing

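Most members were counted with few reads, which limits every comparison of single members. Of the counts of calls and their alternatives, 70 stayed within 1.5 times and 21 moved further; for single named members, 493 kept their call, 82 lost it and 1 changed sign. The 1 call of irradiated against sham mice became 10 with no filter on low counts, 0 with only miRNA of at least 10 CPM, 3 with only libraries of at least 1000000 reads, 2 with limma-voom, 2 with limma-voom and a replicate block for the mouse, 6 with quantile-normalised log2 RPM, 4 with sex and title code as covariates, 0 with only the groups compared in the fit and 4 with DESeq2. As a change from each mouse's own start, with the mouse as a fixed replicate block, it was 0. The strain count of 12 became 7 at 10 CPM or more. The C57Bl/6 sham count of 11 at month 6 became 19 with limma-voom and 22 when it had a replicate block for the mouse. The C57Bl/6 sex count of 7 became 2 with no filter, 4 at 10 CPM or more, 0 at 1000000 reads or more and 3 with quantile normalisation. The strain difference of the irradiation effect went from 0 to 4 with no filter. By rank, likeness to miR-127-3p went from 0 to 3 in C3H alone and 38 in C57Bl/6 alone. By Pearson's r it went from 3 to 2 in C3H alone and 0 in C57Bl/6 alone. Likeness to miR-382-5p, added after seeing the data, went from 160 to 94 by rank in C57Bl/6 alone. miR-341-3p at month 4 in C3H sham mice changed from -1.10 to 0.0149 with only the mice of title codes G1 and G2. The cause of these shifts was not tested.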
